A study of Mus musculus with 18 samples.

Results

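The effect of cannabidiol (CBD) given before lipopolysaccharide (LPS) was read from 6 of the series' 18 samples, 3 samples labelled CBD_LPS and 3 labelled LPS. All cells were BV-2, an immortalised line of mouse microglia, the resident immune cells of the brain. The CBD+LPS cells received 10 µM CBD, and 2 h later 100 ng/ml LPS was added to it for a further 4 h. The LPS cells received 100 ng/ml LPS for 4 h with no cannabinoid. Of the 2134 features listed in each sample, 855 hairpins (mir) and 1279 mature sequences (miR), the 1363 with at least 10 reads over all 18 samples were compared, namely 642 hairpins and 721 mature miRNAs. The untreated control samples and those given 10 µM CBD alone, 3 each, served to set the effect of CBD in resting cells beside that in LPS-treated cells. The remaining samples, 3 given 10 µM tetrahydrocannabinol (THC) alone and 3 given it before LPS, were not compared here. They entered the read filter and the model of all 18 samples that estimates each feature's spread. Nothing in the labels says whether the samples of a group came from separate cultures, so the p-values measure the spread between these samples, which may be technical. As a model, the samples stand for a single virus-transformed cell line at a single dose and time.

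A miRNA gene is transcribed as a longer precursor, from which a hairpin is cut, and the hairpin is then trimmed to a duplex whose arms are named 5p and 3p. Bases 2 to 8 of the mature strand, the seed, pair with target mRNAs and so set which transcripts the miRNA represses. In microglia and macrophages, LPS acts through Toll-like receptor 4 (TLR4) and the transcription factor NF-κB, which induce miR-155, a promoter of inflammatory cytokine output, and miR-146a, which dampens TLR signalling by repressing the adaptor kinase Irak1 and Traf6. CBD is a plant cannabinoid known for anti-inflammatory action and for induction of oxidative stress genes.

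The mature sequences below are those on which the comparison turned. They are RefSeq sequences on GRCm38.p6, which held 600 of the 721 tested mature miRNAs, written 5′ to 3′ with the seed in capitals. The first pair are the mature miRNAs that passed the threshold for a lower level with CBD, and miR-10a-5p is shown because it shares the seed of miR-10b-5p.
miR-6390: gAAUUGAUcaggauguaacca
miR-10b-5p: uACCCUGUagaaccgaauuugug
miR-10a-5p: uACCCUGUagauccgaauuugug
The next pair are the arms of a single hairpin of the miR-17~92 cluster, whose values are set side by side further on.
miR-92a-1-5p: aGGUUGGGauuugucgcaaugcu
miR-92a-3p: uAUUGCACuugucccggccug
The last group holds the minor strand of the mir-181b-1 hairpin, whose difference had the opposite sign to that of the hairpin, miR-129-5p, and the main strand of the inflammatory miR-155.
miR-181b-1-3p: cUCACUGAacaaugaaugcaa
miR-129-5p: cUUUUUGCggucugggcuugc
miR-155-5p: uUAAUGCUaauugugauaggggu

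Counted from the 5′ end of miR-10b-5p, the only difference to miR-10a-5p over 23 bases is A12U, outside the seed. Reads with up to 10 mappings were kept by the authors, so a read that does not cover this base can belong to either miRNA. The seed of miR-6390 was shared by 0 of the other tested mature miRNAs with a RefSeq sequence, and that of miR-10b-5p by 1, miR-10a-5p.

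The depth was close in both groups. The LPS samples held 742150, 842970 and 1057147 reads and the CBD+LPS samples 773522, 838172 and 940858. A level of 3 reads, taken as the smallest that the depth can show, corresponded to between 3.09 and 3.98 CPM (reads scaled to a common library size and by edgeR's TMM factor), a limit that covers counting error only. Reads, features detected, the share of reads on hairpins and the share on the rRNA-like hairpins mir-6243, mir-6240 and mir-6236 gave two-sided exact permutation p-values of 0.8, 0.9, 1 and 0.9, where 3 samples against 3 cannot go below 0.1. One library of each group stood apart. LPS sample 23 differed from the other LPS samples by a chi-square of 72.3 and 74.4 per degree of freedom, against 3.04 between those, and CBD+LPS sample 26 differed from its group with 83.2 and 94.8, against 6.02 between samples 32 and 38. Results are therefore also given without both libraries, as the value within the samples numbered 28 to 39.

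Few features passed the criterion between LPS-treated cells with and without CBD pretreatment, and none passed adjustment in limma. The criterion was the study's own, a difference of 1.5-fold or more at an unadjusted p no higher than 0.005. In limma on log2(CPM + 1), 3 of the 1363 features were lower by it with CBD (0.22%) and 0 were higher (0%). The 3 were miR-6390, the hairpin mir-696 and miR-10b-5p. On reads, edgeR's quasi-likelihood test called the same 3, and DESeq2 those 3 and, as higher, miR-129-5p and mir-1931. At p of at most 0.05, 18 features were higher (1.32%) and 26 lower (1.91%) in limma, together 44 (3.23%). This share is smaller than the threshold of 0.05 itself, as is the 0.22% beside the 0.005 of the criterion. With Benjamini-Hochberg adjustment over all 1363 features, limma called 0 at an adjusted p of at most 0.1 (0%), the smallest adjusted p being 0.318. edgeR called 0 at that level, with 51 at p of at most 0.05, of which 21 were higher and 30 lower. DESeq2 called 1, miR-6390, with an adjusted p of 0.0789, and had 31 at p of at most 0.05. Of those 31, 24 were higher and 7 lower, the reverse of the balance in limma. The CBD+LPS samples all lay above the LPS samples for 47 features (3.45%) and all below for 80 (5.87%), 127 in all (9.32%). With no difference, 3 interchangeable samples without ties separate from 3 with a probability of 0.1. Ties among rare features and the library that stood apart in each group can make it lower. The share to be looked for without an effect is therefore not known, and the 9.32% does not decide whether CBD had one. The median log2 difference over all tested features was -0.05 in limma, with 752 negative and 611 positive, and 0.04 in DESeq2. The direction in which most features leaned thus depended on the method.

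The identity of the cells was checked against miRNA markers. The myeloid markers, of which miR-21a-5p had the highest level, followed by miR-146a-5p, miR-142-5p and miR-155-5p, summed to between 75069 and 75387 CPM in the LPS samples and to between 55642 and 65920 CPM in the CBD+LPS samples. All 7 were lower in the mean with CBD, with 0 at p of at most 0.05 and 2 below in all CBD+LPS samples, beside 5.87% of all features. The epithelial markers summed to 8493 to 9186 CPM against 5638 to 8036 CPM, nearly all of it miR-141-3p, while miR-205-5p was at 0 reads in all 6 samples. The myeloid and epithelial sums thus lay lower in all CBD+LPS samples, and their part in the results was not tested. All samples were of a single line, and a bulk level does not tell fewer cells with a miRNA from less RNA per cell. miR-21a-5p, miR-146a-5p and miR-155-5p are also in the list of miRNAs linked to the TLR and NF-κB response. The myeloid sum therefore does not read cell identity alone. Neuron markers summed to 444 to 549 against 469 to 493 CPM, muscle markers to 1.31 to 3.09 against 1.33 to 2.40 CPM, and erythroid markers to 1.03 to 1.32 against 0 to 1.33 CPM. Liver markers summed to 1227 to 1489 against 1090 to 1245 CPM, endothelial markers to 407 to 904 against 379 to 687 CPM, and oligodendrocyte and astrocyte markers to 2456 to 3960 against 1898 to 4238 CPM.

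How small a difference could have been seen depended on abundance. Among the 94 features at 1000 CPM or more, which took 93.9% of the reads, the median standard error of the log2 difference was 0.21, and for 83 of them (88.3%) the 95% interval lay wholly within a 2-fold change in either direction. For 36 it lay within 1.5-fold. The same held within 2-fold for 105 of 154 features at 100 to 1000 CPM, 92 of 342 at 10 to 100 CPM and 4 of 773 below 10 CPM. For most low features a 2-fold change with CBD could therefore be neither shown nor bounded at this depth.

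**Figure D1:**
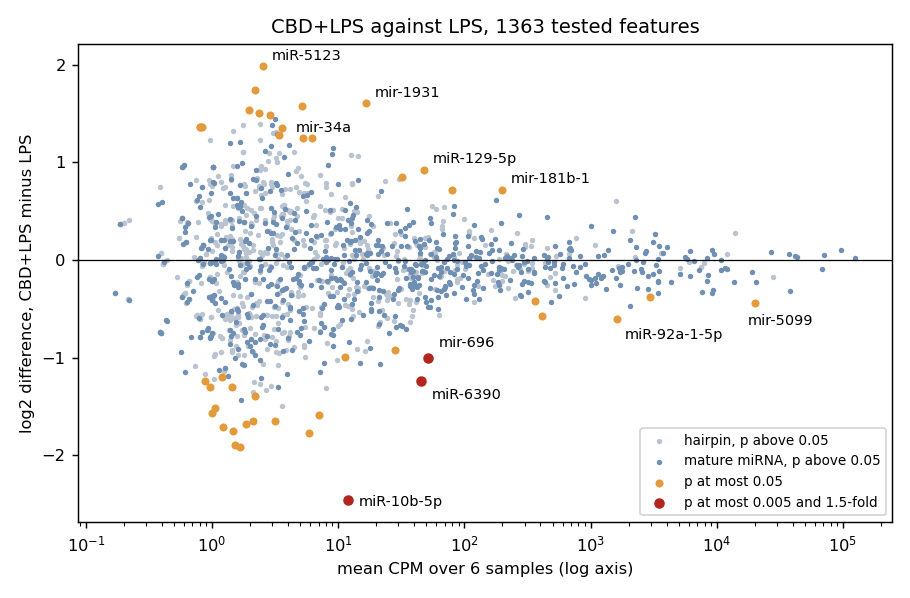
Log2 difference between CBD+LPS and LPS (vertical axis) against mean CPM over the 6 samples (horizontal log axis), 1 point per tested feature. The 3 red points, miR-6390, mir-696 and miR-10b-5p, are the features past the criterion, all below 0, and at 1000 CPM or more the points lie close to 0.

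miR-6390 showed the smallest p-value of all features. Its gene lies at chr14:105623642-105623770 on the minus strand of GRCm38, partly exonic in the non-coding gene Gm6145 of the same strand and in an intron of 9330188P03Rik on the other strand. The LPS samples held 73.2, 64.9 and 54.6 CPM, from 56, 49 and 53 reads, and the CBD+LPS samples 20.3, 29.2 and 31.2 CPM, from 18, 22 and 26 reads. The groups did not overlap, and the highest CBD+LPS sample lay well below the lowest LPS sample. The log2 difference was -1.24 (SE 0.27, 95% interval -1.80 to -0.67), or 57.6% lower, with an unadjusted limma p of 0.000234 and an adjusted p of 0.318. Within samples 28 to 39 the difference was -0.96, and between samples 26 and 23 it was -1.80. In resting cells the control mean was 45.3 ± 4.14 CPM and that with CBD 38.9 ± 8.67 CPM (SD, n = 3), a log2 difference of -0.23 with an adjusted limma p of 0.829. The difference between both CBD effects was -1.0, with an adjusted limma p of 0.909. The hairpin entry mir-6390 held 3, 2 and 4 reads against 1, 2 and 1, too few for a comparison, and this entry was chosen after its values were seen. The mature sequence occurs without a mismatch in 4 annotated transcripts of Gm6145, and whether the reads came from these or from a processed miRNA was not tested.

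The hairpin mir-696, a miRBase entry, was lower with CBD whether or not LPS followed. It stood at 64.1, 75.5 and 66.9 CPM in the LPS samples and 25.9, 41.2 and 35.99 CPM in the CBD+LPS samples, from 49, 57 and 65 and 23, 31 and 30 reads. The highest CBD+LPS sample stood well under the lowest LPS sample. The level was 50.1% lower, a log2 difference of -1.0 (SE 0.26, 95% interval -1.56 to -0.45), with an unadjusted limma p of 0.00135 and an adjusted p of 0.849. In resting cells mir-696 was at 77.8 ± 10.6 CPM in control and 30.03 ± 6.59 CPM with CBD, a log2 difference of -1.36 with an adjusted limma p of 0.0342. Both differences pointed down, and the interaction term did not pass the test (log2 0.35, limma, adjusted p = 0.988). Within samples 28 to 39 the difference with LPS was -0.87, still past the criterion. Leaving out sample 26 alone gave -0.82 and leaving out LPS sample 29 gave -0.94, both short of the criterion, as were scaling to the reference miRNAs miR-191-5p and miR-103-3p (-0.92) and a fit of the 6 LPS and CBD+LPS samples alone (-1.0).

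miR-10b-5p, whose gene lies at chr2:74726070-74726137 in introns of the homeobox genes Hoxd3 and Hoxd4, had the fewest reads of the 3. The LPS samples held 8, 20 and 23 reads (10.5, 26.5 and 23.7 CPM) and the CBD+LPS samples 1, 1 and 7 reads (1.13, 1.33 and 8.40 CPM). Samples 26 and 32 held a single read each, and sample 38 came within 1 read of the lowest LPS sample, so the groups were barely apart. The log2 difference was -2.46 (SE 0.67, 95% interval -3.87 to -1.05) with an unadjusted limma p of 0.00187 and an adjusted p of 0.849. Control samples held 2, 0 and 3 reads and CBD samples 3, 2 and 4, so that the levels with CBD and LPS together, 3.62 ± 4.14 CPM, were near those of the resting groups, at 2.58 ± 2.27 and 4.79 ± 1.35 CPM (SD, n = 3), and the LPS group stood above all of them at 20.2 ± 8.56 CPM. With CBD alone the difference from control was 0.99 (limma, adjusted p = 0.664), and the interaction was -3.45 (limma, adjusted p = 0.524). The means with CBD and LPS together and in both resting groups lay near the 3-read limit. The sizes of these log2 values therefore depend on the 1 added to each CPM value and are not measured fold changes. Without both libraries that stood apart the difference between CBD+LPS and LPS was -2.48 and no longer past the criterion, and leaving out LPS sample 29, LPS sample 35, CBD+LPS sample 26 or CBD+LPS sample 32 also left a p above 0.005.

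The near-identical miR-10a-5p held 9, 6 and 12 reads in the LPS samples and 19, 11 and 8 in the CBD+LPS samples, with overlapping groups and a log2 difference of 0.43 (95% interval -0.89 to 1.74, limma, adjusted p = 1). Of the 9 tested members of the miR-10, miR-99 and miR-100 list, 2 were lower at p of at most 0.05 and 0 were higher, beside 1.91% lower and 1.32% higher of all features. The second was the hairpin mir-10a, at 1, 3 and 1 reads against 0, 0 and 0, where both groups lie at or near the 3-read limit. Median log2 difference over the list was -0.30, against -0.05 over all features. The hairpin mir-10b and the arm miR-10b-3p had too few reads to be tested.

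**Figure D2:**
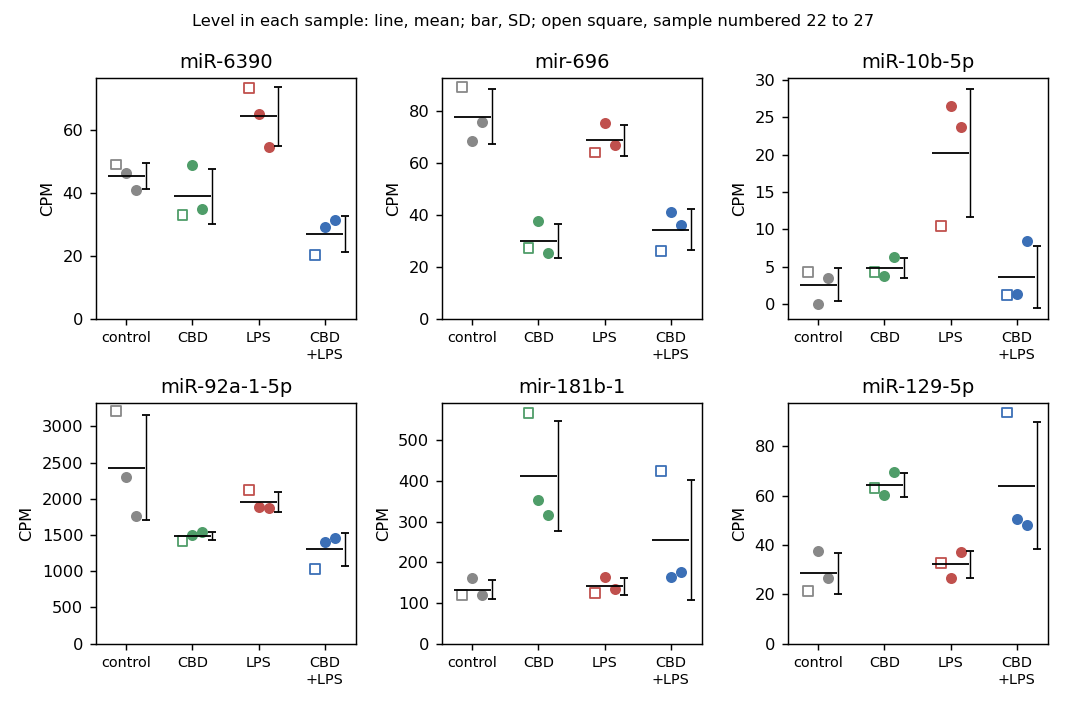
CPM of 6 features (linear vertical axes) in each sample of the control, CBD, LPS and CBD+LPS groups, with the mean as a line and the SD as a bar. Open squares are the samples numbered 22 to 27. mir-696 and miR-92a-1-5p were lower with CBD in both settings, miR-6390 lay lowest with CBD and LPS together, and for mir-181b-1 the CBD+LPS mean was raised by sample 26.

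The arms of the mir-92a-1 hairpin gave unlike values, a difference that was not itself tested. The hairpin belongs to the miR-17~92 cluster, an oncogenic polycistron that promotes cell proliferation, and lies at chr14:115044427-115044506 in an exon of its host transcript Mir17hg. The minor arm miR-92a-1-5p held 2116, 1884 and 1868 CPM in the LPS samples and 1036, 1411 and 1454 CPM in the CBD+LPS samples, from 1618, 1423 and 1814 and 919, 1062 and 1212 reads. The groups did not overlap. Its level was 34.1% lower (log2 -0.60, SE 0.21, limma, adjusted p = 1), which missed the study's criterion. With the level of the rRNA-like hairpins as a covariate it passed, at -0.61. In resting cells the log2 difference with CBD was -0.66 (limma, adjusted p = 0.254), and the interaction was 0.06 (limma, adjusted p = 0.989). Without samples 22 to 27 the value with LPS was -0.39. The main arm miR-92a-3p, the most abundant miRNA of these cells and one that mir-92a-2 also yields, was at 142225, 120542 and 111308 CPM against 142621, 112839 and 123485 CPM. Its log2 difference of 0.02 had an interval within 1.5-fold (95% interval -0.32 to 0.36), and the hairpin mir-92a-1 had a log2 difference of 0.07.

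Among the 18 tested members of miR-17~92, 3 were lower at p of at most 0.05 (1.91% of all features) and 0 were higher (1.32%). Of the 18 differences 14 were negative, against 752 of 1363, and the median was -0.31, against -0.05. The other 2 were miR-20a-3p and the hairpin mir-19a. miR-20a-3p, the minor arm of a miRNA that represses cell cycle brakes, held 403, 439.6 and 402 CPM against 288, 288 and 356 CPM, without overlap, a log2 difference of -0.42 (limma, adjusted p = 1). Its main arm miR-20a-5p had a log2 difference of -0.11 with an adjusted limma p of 1. mir-19a rested on 10, 10 and 2 against 5, 1 and 0 reads, and its groups overlapped. In the sister cluster miR-106b~25, none of the 9 tested members reached p of at most 0.05 in limma, the median was -0.04, and 8 of the 9 intervals lay within 2-fold.

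The miRNAs linked to the TLR and NF-κB response showed mostly small differences with CBD. Of the 23 tested, 0 were higher and 1 was lower at p of at most 0.05 in limma, near the 1.32% and 1.91% of all features. Of the differences 17 were negative and 6 positive, and the median was -0.14, against -0.05 over all features. The CBD+LPS samples lay below all LPS samples for 6 of them (5.87% of all features) and above for 1 (3.45%). Their summed level was 70278 to 75383 CPM in the LPS samples and 53435 to 66607 CPM in the CBD+LPS samples, and most of it was miR-21a-5p. For 13 of the 23 the 95% interval lay within 2-fold.

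miR-155-5p was at 8157, 9334 and 9273 CPM in the LPS samples and 6580.4, 8182 and 8333 CPM in the CBD+LPS samples. The groups overlapped, since samples 32 and 38 lay above LPS sample 23, the LPS library that stood apart. The log2 difference was -0.22 (SE 0.22, 95% interval -0.68 to 0.25, limma, adjusted p = 1), beside one of 3.33 between LPS and control, a comparison that shares the LPS samples. Its other arm miR-155-3p differed by -0.23 and the hairpin mir-155 by -0.31, both with an adjusted limma p of 1. In resting cells, at much lower levels, CBD went with log2 differences of 0.48 for miR-155-5p and 0.52 for the hairpin (limma, adjusted p = 0.525 and 0.568). The interactions, -0.70 and -0.83, each had an adjusted limma p of 0.909.

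miR-146a-5p held 10482, 12064 and 10411 CPM against 7509.6, 12680.4 and 11267 CPM. Only sample 26 lay below all LPS samples. The log2 difference was -0.10 (95% interval -0.68 to 0.49, limma, adjusted p = 1) and turned to 0.09 within samples 28 to 39. Its minor arm miR-146a-3p was at 34, 22 and 33 against 21, 19 and 14 reads, all lower with CBD, with a log2 difference of -0.69 and an adjusted limma p of 1. The minor arm of its paralogue, miR-146b-3p, was the member of the list lower at p of at most 0.05, at 13, 10 and 15 reads against 5, 5 and 8 (log2 -0.99, SE 0.42, limma, adjusted p = 1). The main arm miR-146b-5p differed by -0.16 with an adjusted limma p of 1.

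miR-21a-5p, an abundant miRNA whose gene lies in an exon of Vmp1, was at 40674, 42682 and 44087 CPM in the LPS samples and 30648, 35188 and 36785 CPM in the CBD+LPS samples. Every CBD+LPS sample was below every LPS sample, by 19.7% in the mean of the logs. The test did not set this apart from the spread between samples (log2 -0.32, SE 0.19, 95% interval -0.72 to 0.09, limma, adjusted p = 1). miR-21a-3p also lay lower in all CBD+LPS samples, with a log2 difference of -0.24 (limma, adjusted p = 1), and the hairpin mir-21a differed by -0.01. Among the remaining members, miR-132-5p was lower in all CBD+LPS samples at 85.0, 70.2 and 64.9 against 46.2, 49.1 and 58.8 CPM (log2 -0.50, limma, adjusted p = 1), while its partner miR-132-3p differed by 0.02. miR-9-5p was the only member above in all CBD+LPS samples, at 9, 8 and 8 reads against 7, 5 and 5 (log2 0.51, limma, adjusted p = 1).

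**Figure D3:**
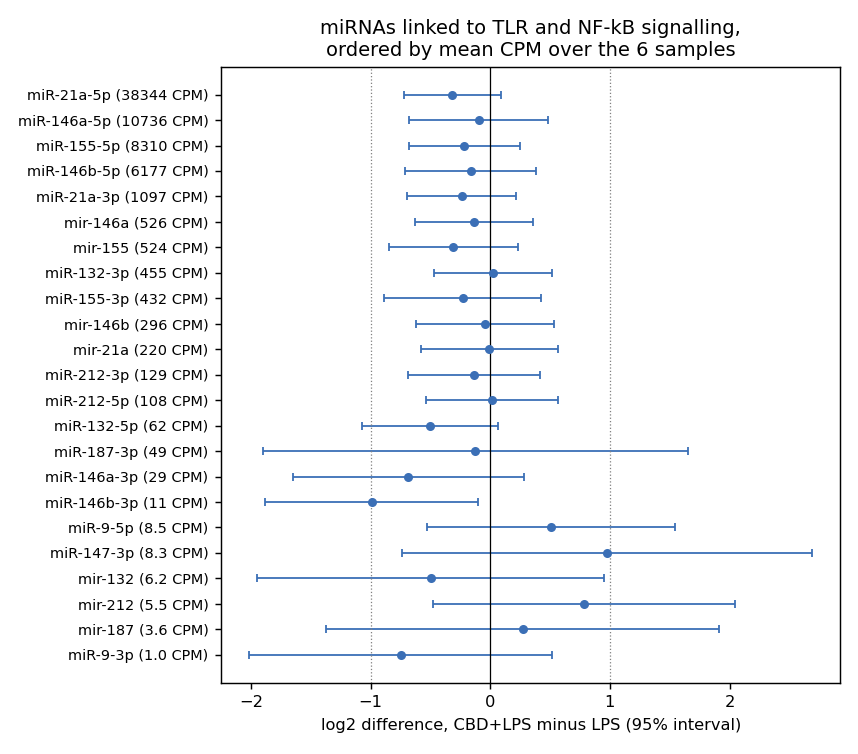
Log2 difference between CBD+LPS and LPS (horizontal axis) with its 95% interval from limma for the 23 tested miRNAs linked to TLR and NF-κB signalling, ordered by mean CPM over the 6 samples. Dotted lines mark a 2-fold change. Except for miR-146b-3p the intervals include 0, and those of the most abundant miRNAs lie within 2-fold.

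The pair miR-221 and miR-222, which repress the cell cycle inhibitor p27, had differences of like size. Of 6 tested features, 5 had a negative difference, 0 reached p of at most 0.05 in limma in either direction, the median was -0.20 and all 6 intervals lay within 2-fold. miR-221-3p was at 9746, 16249 and 17235 CPM against 6843, 15335 and 16137 CPM, so the samples 23 and 26 lay far below the others of their groups. Its log2 difference of -0.23 (95% interval -0.95 to 0.50) became -0.09 within samples 28 to 39.

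The let-7 family, repressors of growth genes and of the cytokine Il6, shares the seed GAGGUAG on its 5p strands with miR-98-5p. All 13 tested entries of the list, 5p and 3p, had a negative difference, from -0.66 to -0.02, against 752 of all 1363 features. The median was -0.23, against -0.05 over all features. Only let-7g-5p was lower at p of at most 0.05 in limma, beside 1.91% of all features. It was at 2721, 3683 and 3573 CPM against 2154, 2651 and 2868 CPM, with LPS sample 23 inside the range of the CBD+LPS samples (log2 -0.38, SE 0.17, limma, adjusted p = 1). The members share sequence and reads can map to several of them, so they are not independent of each other. miR-98-5p lay lower in all CBD+LPS samples, at 1365, 1527 and 1480.0 against 1156, 1110.4 and 1303 CPM (log2 -0.29, limma, adjusted p = 1), and its difference in resting cells was 0.35 (limma, adjusted p = 0.54). The interaction for miR-98-5p was -0.65 (limma, adjusted p = 0.909).

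The most abundant miRNAs differed little. The 12 mature miRNAs with the highest mean CPM were miR-92a-3p, miR-22-3p, miR-191-5p, miR-27b-3p, miR-30d-5p, miR-16-5p, miR-21a-5p, miR-181a-5p, miR-182-5p, let-7f-5p, miR-30a-5p and miR-221-3p. Their log2 differences ran from -0.32 for miR-21a-5p to 0.11 for miR-22-3p, and none of them reached p of at most 0.1 in limma. The interval was narrow for miR-30a-5p (-0.41 to 0.16) and miR-191-5p (-0.50 to 0.32). It was wide for miR-181a-5p (-1.22 to 1.35), which stood at 14622, 49125 and 45646 CPM in the LPS samples and 14616, 49005 and 52218 CPM in the CBD+LPS samples, low in samples 23 and 26 alone. The reference miRNAs miR-103-3p, miR-107-3p and miR-191-5p had differences between -0.09 and 0.04, with all 3 intervals within 2-fold.

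A pair of abundant hairpins were lower with CBD at p of at most 0.05. mir-5099, an abundant hairpin entry, held 24631, 23032 and 21598 CPM against 15073, 17917 and 17992 CPM. Groups did not overlap, and the level was 26.5% lower (log2 -0.44, SE 0.19, limma, adjusted p = 1), beside a log2 difference of -0.40 in resting cells (limma, adjusted p = 0.525). mir-16-1, the precursor of a miRNA that represses Bcl2 and cyclins, was at 677, 410.4 and 407 against 372, 316 and 289 CPM (log2 -0.58, limma, adjusted p = 1), whereas mature miR-16-5p differed by 0.04. mir-5099 and mir-16-1 were chosen for the text after their values were seen. Neither passed the criterion.

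Of the features with higher levels after CBD, miR-129-5p, a brain-enriched miRNA made from 2 genes, held 32.7, 26.5 and 37.1 CPM in the LPS samples and 93.6, 50.5 and 48.0 CPM in the CBD+LPS samples. All CBD+LPS samples lay above all LPS samples, sample 26 by the widest margin. The log2 difference was 0.92 (SE 0.36, limma, adjusted p = 1) and 0.63 within samples 28 to 39, beside 1.18 in resting cells (limma, adjusted p = 0.254). In DESeq2 on the recovered reads it passed the criterion, with a log2 difference of 1.10. miR-1306-3p, chosen after its values were seen, showed a like pattern at 58.8, 45.0 and 75.2 against 139, 74.4 and 87.6 CPM, with overlapping groups and an adjusted limma p of 1.

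The miR-181 family, which tunes the sensitivity of T cell receptor signalling, held a hairpin and an arm with differences of opposite sign. The hairpin mir-181b-1, at chr1:137966639-137966718 in an exon of the non-coding gene A430106G13Rik, stood at 95, 124 and 131 reads in the LPS samples and 376, 124 and 147 in the CBD+LPS samples. The distance between the means rested on sample 26. The log2 difference of 0.72 (SE 0.31, limma, adjusted p = 1) was 0.19 within samples 28 to 39. The minor arm miR-181b-1-3p, cut from the same hairpin, was at 24, 33 and 32 reads against 10, 13 and 26, with no overlap in CPM (log2 -0.92, limma, adjusted p = 1). It missed the criterion and passed it without CBD+LPS sample 38, at -1.29. The main arm miR-181b-5p, which a second hairpin also yields, differed by 0.07. These were the only members among 16 tested that reached p of at most 0.05 in limma, 1 in each direction (1.32% higher and 1.91% lower of all features), with 8 negative and 8 positive differences in all and a median of -0.08.

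In the miR-34 and miR-449 list, whose members slow the cell cycle, 1 of 12 tested features was higher at p of at most 0.05 (1.32% of all features) and 0 were lower (1.91%), with a median of 0.00. This was the hairpin mir-34a, at 5, 5 and 3 reads with CBD and LPS against 1, 1 and 2 with LPS (limma, adjusted p = 1). All CBD+LPS samples lay above all LPS samples, but at 1 to 5 reads a sample both groups were near the limit of detection, and no fold change is given. The mature miR-34a-5p, at 41, 67 and 91 reads against 34, 65 and 86, differed by -0.12 (95% interval -0.94 to 0.69).

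None of the 10 tested miRNAs that target Nfe2l2, the transcription factor of the oxidative stress response, or that answer hypoxia reached p of at most 0.05 in limma, with 5 differences in each direction and a median of -0.02. Of the 9 snoRNA-like or rRNA-like entries 1 was lower at p of at most 0.05, mir-696 (1.91% of all features), and 0 were higher (1.32%), with a median of -0.02. Among the 31 features that the study had singled out, 3 were higher at p of at most 0.05 (miR-5123, mir-34a and mir-181b-1) and 3 lower (mir-696, miR-10b-5p and miR-20a-3p), beside 1.32% and 1.91% of all features, with a median of -0.22. That list was drawn up by the study on these samples and is not independent evidence of any direction. miR-5123, encoded in an intron of B4galt1, held 0, 0 and 1 reads in the LPS samples and 5, 1 and 6 in the CBD+LPS samples (limma, adjusted p = 1), too few with LPS for a fold change. It missed the criterion, but passed it in limma without the trend, without CBD+LPS sample 32 and without LPS sample 35. The groups came close, as LPS sample 35 and CBD+LPS sample 32 held 1 read each and differed only in depth.

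Whether CBD acted alike with and without LPS was asked in samples that share no library. The 7 features with an adjusted limma p of at most 0.1 for CBD against control in resting cells (0.514% of those tested) were read again in the LPS-treated cells. The values in resting cells chose these features and are given as a description. Being chosen for their size, they are likely too large, so smaller differences with LPS are to be looked for. The interactions given for these features reuse them and are no separate test. Those with LPS come from other samples, but the model of all 18 samples gives both comparisons a single estimate of each feature's spread. In a limma fit of the 6 LPS and CBD+LPS samples alone, mir-696 and mir-34a of the 7 reached p of at most 0.05. All 7 had an adjusted p of 0.999 there. In the fit of all 18 samples, 3.23% of all features reached p of at most 0.05 for CBD+LPS against LPS. That fit estimates the spread otherwise, and the share of all features in the fit of the 6 samples is not given. The result for mir-696 and mir-34a therefore has no like share beside it.

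mir-696 went from -1.36 in resting cells to -1.0 with LPS, the one feature of the 7 that passed the study's criterion in both. mir-34a held 0, 1 and 1 reads in control and 7, 3 and 6 with CBD, beside 1, 1 and 2 with LPS and 5, 5 and 3 with CBD and LPS. mir-181b-1 went from 1.59 to 0.72, the latter resting on sample 26, and in resting cells CBD sample 24 was likewise the highest of its group. Both reached p of at most 0.05 with LPS in the fit of all samples. The near-identical entries mir-3096a and mir-3096b went from 0.83 to 0.22 and from 0.99 to 0.29. mir-3096b held 1699, 2056 and 1989.8 CPM in the LPS samples and 2286, 2302 and 2432 CPM in the CBD+LPS samples, all above but by little (95% interval -0.06 to 0.64, limma, adjusted p = 1), and its interaction was -0.70 (limma, adjusted p = 0.909). The gene Mir3096 is annotated as a small nucleolar RNA in an intron of AI506816. miR-3968 went from 0.67 to 0.14 with an adjusted limma p of 1. mir-5112 went from 1.43 to -0.18, at 65.4, 59.6 and 76.2 CPM against 89.1, 54.5 and 42.0 CPM with overlapping groups (limma, adjusted p = 1). The interaction of -1.61 for mir-5112 had an adjusted limma p of 0.524.

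**Figure D4:**
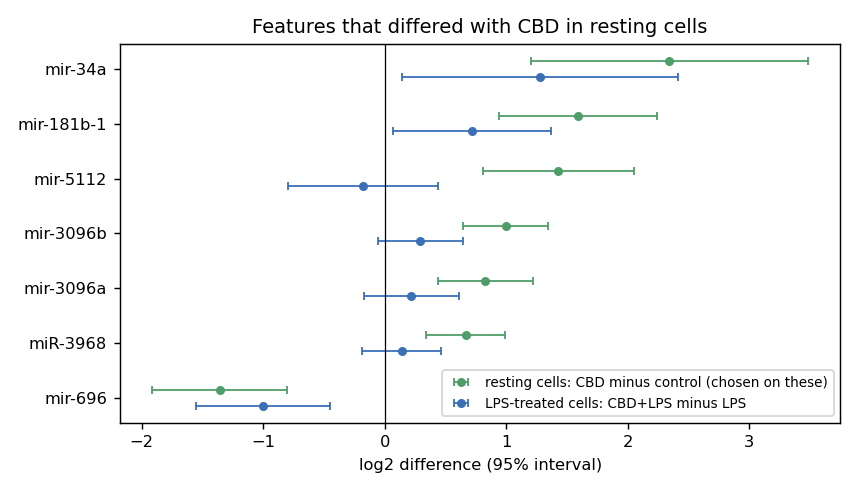
Log2 difference with CBD (horizontal axis) and its 95% interval from limma for the 7 features chosen for their difference in resting cells, there (green) and in LPS-treated cells (blue). The values of mir-34a rest on 0 to 7 reads a sample and depend on the pseudocount. Intervals with LPS lie off 0 for mir-34a, mir-181b-1 and mir-696, and that of mir-5112 with LPS lies apart from the one in resting cells. Since the resting values chose the features, a distance between green and blue is no test of unlike effects.

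Over all features the interaction of CBD with LPS was called for 0 of 1363 at an adjusted limma p of at most 0.1 (0%), with 65 at p of at most 0.05 (4.77%) and a smallest adjusted p of 0.524. edgeR and DESeq2 on the recovered reads also called 0, with 63 and 34 at p of at most 0.05. For 5 features (0.367%) the CBD+LPS samples lay on one side of all LPS samples and the CBD samples on the other side of all control samples. So small a share can also arise without any effect. Without samples 22 to 27 the count of interactions called was 134. In that subset the share of reads on mir-6243, mir-6240 and mir-6236 was 0.160% and 0.151% in the CBD samples and between 1.20% and 3.81% in the control, LPS and CBD+LPS samples, and the part of this in the count was not tested. Across features, the CBD differences with and without LPS had a Pearson r of 0.109 (n = 1363), and 0.181 over the 248 features at 100 CPM or more, a description over features that share libraries and depth. When both CBD effects were averaged, a comparison added after the data were seen, 18 features passed the criterion, 12 higher and 6 lower. Of these mir-181b-1, mir-3096b and mir-34a were higher and mir-696 lower at an adjusted limma p of at most 0.1, with log2 differences of 1.15 for mir-181b-1, 0.64 for mir-3096b and -1.18 for mir-696. All of them are among the 7 features chosen in resting cells. Since the resting values that chose them enter the average, it is no separate evidence on these features.

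The remaining features with the smallest p-values in either direction were rare. Those with no overlap between groups and higher counts with CBD included miR-692 at 0, 0 and 2 against 2, 3 and 3 reads, miR-5107-3p at 4, 1 and 2 against 8, 4 and 7, miR-328-5p at 3, 0 and 3 against 4, 4 and 12 and miR-1934-3p at 1, 1 and 2 against 6, 5 and 3. miR-3113-5p and miR-346-3p had 0 reads in each LPS sample and 1, 1 and 2 with CBD, and mir-5110 was at 0, 2 and 1 against 3, 4 and 4 reads. Lower counts with CBD were found for mir-673 at 1, 2 and 5 reads, miR-511-5p at 3, 1 and 2 and mir-551b at 5, 1 and 2, each with 0 reads in every CBD+LPS sample, and for miR-500-5p at 4, 2 and 2 against 1, 0 and 0. Of these 11, none passed the criterion in the limma fit used here. Without the variance trend, or without LPS sample 23, miR-5107-3p passed it, and without LPS sample 35 so did miR-692. Group levels at or below 3 reads a sample allow no fold change. mir-1931, chosen after its values were seen, stood at 3, 6 and 6 reads against 52, 8 and 10, and its log2 difference of 1.61 was 0.62 within samples 28 to 39, without sample 26.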

How the data were processed

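Small RNA libraries of BV-2 cells were made with the Illumina TruSeq kit in a single pool, and the authors mapped them with BWA on the miRBase set for mouse, with up to 10 mappings a read. The deposited values are a normalized signal per hairpin and mature miRNA, reads scaled by the library size multiplied by edgeR's TMM factor (CPM), with no filter. Each value was a whole multiple of that of 1 read, and 100% of values gave whole reads, to within 5.06e-05 of a read.

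Groups were taken from the labels. Values were set to log2(CPM + 1), features with a sum of 10 reads or more over all 18 samples were kept, and all 6 groups were fitted in limma 3.58.1 (R 4.3.3, trended variance). Fold changes are on this scale, which understates those of low features. P-values are two-sided, adjusted by the Benjamini-Hochberg method over the 1363 features. edgeR 4.0.16 and DESeq2 1.42.0 on the recovered reads were alternatives.

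The members and lists were chosen with earlier results of these data known. Named were every feature past the criterion, the 10 smallest p-values in each direction without overlap, the 12 most abundant mature miRNAs and the listed families, beside features said to be chosen later. Sequences are RefSeq (GRCm38.p6), and gene positions are GENCODE M21 (GRCm38).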

Additional observations from a re-analysis of the deposited data

Results flagged for a closer look

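For 5 of the 1363 features (0.367%) every CBD+LPS sample lay on one side of every LPS sample while every CBD sample lay on the other side of every control sample. With 3 samples a group, so small a share can also arise without any effect, and the share to be looked for without one was not computed. Of these, miR-9-5p, miR-20a-3p and miR-692 are named in the report. The difference between both CBD effects, as the log2 difference with LPS minus that without, was 1.40 for miR-9-5p and -0.71 for miR-20a-3p. These features were picked for this pattern, so the difference was not tested on them. miR-692 held at most 3 reads in any of the 12 samples, and no fold change is given.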

How the results depend on the processing

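The count of features past the criterion, 3 in limma, was 0 at an adjusted p of at most 0.1, 44 at p of at most 0.05 with no fold threshold, 7 with a filter of at least 1 read, 1 for hairpins alone, 5 in DESeq2, 5 in limma without the trend, 18 with both CBD effects averaged, and 1 to 6 when 1 sample was left out. It fell to 1, miR-6390, without LPS sample 29 or CBD+LPS sample 26. Under the other alternatives it was 2 to 4. miR-6390 was called in 23 of 24 settings, mir-696 in 19 and miR-10b-5p in 17, where fits of hairpins alone or mature miRNAs alone hold only some of them. The interaction count was 0, also with each sample left out, except 134 in samples 28 to 39 alone.

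With both CBD effects averaged, the sign turned for mir-5112 (0.63), miR-155-5p (0.13), mir-155 (0.11), miR-98-5p (0.029), miR-30a-5p (0.10) and miR-9-5p (-0.19). For miR-146a-5p it turned in DESeq2 (0.0036) and in samples 28 to 39 (0.093). With 1 sample left out, the log2 difference ran from -0.47 to 0.062 for mir-5112, from -0.25 to 0.13 for miR-146a-5p and from -0.49 to 0.17 for miR-221-3p. The causes were not tested. The group differences ran from -99208 to 58291 in reads, -47.7 to 19.3 in features detected, -1.38 to 0.878 percentage points in hairpin reads and -0.338 to 0.455 in reads on the rRNA-like hairpins.

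Another scaling moved the median of all features by less than 0.1, but its sign was not stable. The median was -0.048 on the deposited scale and -0.020 with library size alone. It was 0.018 with relative log expression size factors and 0.029 with scaling to the reference miRNAs. The label numbers form 3 runs of 6 with 1 sample of each group. Deviations from the group means correlated within a run by 0.261, 0.116 and 0.0642 for LPS and CBD+LPS and by -0.427, -0.207 and -0.13 for control and CBD, so the runs were not taken as pairs. These values weigh rare and abundant features alike. Some abundant features did follow the runs, such as miR-210-3p at 184, 1933 and 1907 CPM in the LPS samples and 226, 2251 and 2493 CPM in the CBD+LPS samples. For such features the intervals given here, which leave out the runs, can be too wide. With a replicate block on the runs, added after the data were seen, the counts were 3, the same features, and 0 for the interaction. Below 10 CPM the depth bounded a change within 2-fold for 4 of 773 features.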
